A study of Homo sapiens with 15 samples.

Results

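The 10 genes of the Nodal and Activin pathway named here were followed through the differentiation of the human embryonic stem cell line H1 towards committed cardiac progenitors. The 10 genes were chosen by name, and each was matched by its Ensembl identifier among the 48777 genes of the deposited tables. They are the ligands NODAL, GDF3 and INHBA, the co-receptor TDGF1, the receptor ACVR2B, the secreted antagonists LEFTY1, LEFTY2, CER1 and FST, and the transcription factor FOXH1. Bulk RNA was sequenced on days 0, 4, 9, 11 and 20, with 3 libraries a day and 15 in all. Day 20 replicates 2 and 2_3 carry the same plate number in their sample names, and whether they are independent is not stated. Every library was H1 on a laminin coating, which the sample labels give as LN521+LN221 on all days and the deposited sample table gives as L521 alone on day 0. On day 0 the cells were undifferentiated and kept in Nutristem medium. During differentiation cells received CHIR99021, which inhibits GSK3 and so turns on Wnt signalling, and after that IWP2, which blocks the secretion of Wnt proteins, in RPMI 1640 with B27 lacking insulin. The study's methods place CHIR99021 at confluence on day 4 and IWP2 later, but the protocols in the sample labels differ on these days. Day 4 cells may thus have been taken before any small molecule, which the sources used here do not settle. From day 11 the medium was RPMI 1640 with a complete B27 supplement. No Nodal or Activin protein is named among the added factors, and no library came from cells that missed CHIR99021 or IWP2 at the same age, so time, medium and small molecules cannot be told apart. All libraries stem from 1 cell line, and bulk RNA cannot separate fewer cells of a type from less RNA per cell.

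Nodal and Activin are secreted proteins of the TGF-beta family that bind type II receptors such as ACVR2B and type I receptors such as ACVR1B, after which SMAD2 and SMAD3 are phosphorylated and enter the nucleus with SMAD4. Nodal and GDF3 also need an EGF-CFC co-receptor, TDGF1 (Cripto) or CFC1 (Cryptic), whereas Activin A, the dimer of the INHBA product, does not. FOXH1 brings the SMAD complex to DNA, and NODAL, LEFTY1 and LEFTY2 are themselves known targets, so that ligand and antagonist are induced together. The pathway maintains the pluripotent state of human embryonic stem cells and, in the embryo, specifies mesendoderm and later the left side of the body.

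Marker levels followed the labelled days. The 6 markers of undifferentiated cells (POU5F1, NANOG, SOX2, DPPA4, ZFP42 and DNMT3B) summed to 4209 to 6244 TPM on day 0 (TPM is the deposited level per unit of gene length, scaled to a common total), to 5215 to 5411 TPM on day 4 and to 37.2 to 69.3 TPM on day 20. Cardiomyocyte markers (TNNT2, MYH6, ACTN2, NKX2-5 and MYL7) summed to 8.92 to 13.1 TPM on day 0 and to 3647 to 20440 TPM on day 11. Other cell types were present as well, since the mesenchymal markers COL1A1, COL3A1, DCN, LUM and POSTN reached 986 to 6041 TPM on day 11 and the endodermal markers SOX17, FOXA2, AFP, APOA1 and TTR reached 609 to 18296 TPM on day 20. Libraries held 11990302 to 33469703 counts. Uniquely mapped reads made up 35% in day 0 replicate 3 and 46% in day 9 replicate 2. In these libraries 1 gene held 20.0% and 17.0% of all TPM, against at most 2.54% in any other library. The same gene held only 0.370% and 0.294% of their counts. The TPM of all other genes is therefore lowered there. Replicate 2_3 of day 20 stood apart, with an RNA integrity number of 6.1 and 48230 genes counted, against 30886 to 39551 in the other libraries. Of 252 autosomal coding genes that were silent on days 0 to 11 (at most 2 counts over those 12 libraries), 251 had counts in that library, with a median of 3.05 TPM. Its values for weakly expressed members are read against that level below.

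The promoters of 3 members, NODAL, GDF3 and CER1, are shown, a choice made after the values were seen. Each was highest in the same day 0 library and lowest in the same day 4 library. FOXH1 and SMAD proteins act through short DNA motifs, and a shared cause was not tested. Each sequence is the 250 bases before the RefSeq start of the gene (build GRCh38.p14), read 5′ to 3′ on the strand of the gene. For NODAL this start lies inside the gene span given below, which runs to 70447951, so its window is not upstream of that whole span. Capitals mark matches to TGTNNATT, a FOXH1 motif, or CAGAC, a SMAD motif, on either strand.
NODAL, chr10:70441682-70441931, minus strand: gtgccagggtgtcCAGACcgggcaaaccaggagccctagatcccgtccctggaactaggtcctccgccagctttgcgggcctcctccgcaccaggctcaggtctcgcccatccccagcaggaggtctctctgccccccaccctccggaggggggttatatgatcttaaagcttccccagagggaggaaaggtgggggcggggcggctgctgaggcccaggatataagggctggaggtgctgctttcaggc
GDF3, chr12:7695776-7696025, minus strand: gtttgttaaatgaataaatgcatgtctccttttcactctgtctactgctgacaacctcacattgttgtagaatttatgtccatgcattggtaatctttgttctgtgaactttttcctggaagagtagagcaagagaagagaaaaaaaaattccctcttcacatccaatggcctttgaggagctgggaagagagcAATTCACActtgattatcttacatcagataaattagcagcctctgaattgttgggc
CER1, chr9:14722734-14722983, minus strand: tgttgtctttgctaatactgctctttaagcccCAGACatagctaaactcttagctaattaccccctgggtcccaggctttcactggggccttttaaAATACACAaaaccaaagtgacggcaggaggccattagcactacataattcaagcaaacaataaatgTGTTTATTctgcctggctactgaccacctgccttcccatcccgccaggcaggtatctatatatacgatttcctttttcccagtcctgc

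CER1 held 2 matches to the FOXH1 motif, starting 154 and 88 bases before the start of the gene, and 1 match to the SMAD motif at 218 bases. GDF3 held 1 FOXH1 match at 56 bases. NODAL held a SMAD match at 237 bases before its RefSeq start and none to the FOXH1 letters in that window. Over windows of 300 bases, which add 50 bases after the start, 11.03% of 35116 RefSeq promoters held TGTNNATT and 45.26% held CAGAC, so the SMAD letters alone are common. In these longer windows GDF3 held 2 SMAD matches, both after its start, INHBA held 1 and ACVR2B and FST held neither motif. TDGF1, LEFTY1, LEFTY2 and FOXH1 had no entry among the promoters used. A match is a description of letters and not a bound site.

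The clearest change among the 10 genes was the loss of the co-receptor TDGF1. TDGF1 (ENSG00000241186, chromosome 3, 46574534 to 46582457, plus strand) was at 497, 931 and 404 TPM in replicates 1, 2 and 3 of day 0, and at 194, 546 and 707 TPM in replicates 1, 2 and 5 of day 4. On day 9 it measured 44.7, 15.7 and 80.2 TPM in replicates 2, 6_1 and 3. Day 11 held 3.16, 5.30 and 3.22 TPM in replicates 2, 5 and 6, and day 20 held 3.28, 7.73 and 1.88 TPM in replicates 2, 2_3 and 6_1. Days 0 and 4 overlapped, days 9 and 11 each lay wholly below the day before, and days 11 and 20 overlapped again. The level fell 9.88-fold from day 4 to day 9 (log2 fold change -3.30, SE 0.69, adjusted p = 0.00556 by edgeR's quasi-likelihood test) and 12.8-fold from day 9 to day 11 (log2 fold change -3.68, SE 0.61, adjusted p = 0.0328). Between days 4 and 11 the decrease was 128-fold (log2 fold change -7.00, SE 0.58, adjusted p = 0.000104). With the plate number of the sample names as a block the second step kept its size (log2 fold change -3.10) but not its call (adjusted p = 0.173). What the number marks is not stated, and a library whose number has no partner on the other day, here day 9 replicate 3 and day 11 replicate 5, adds nothing to a blocked fold change. That step was also not called in 5 of the 6 fits that left out a library, all but the fit without day 9 replicate 6_1, and in those 5 fits the log2 fold change lay between -3.94 and -3.06. Over all genes those 5 fits called from 0 (without day 9 replicate 2) to 411, against 495 with all 6 libraries. Without the filter on low counts neither successive step was called (adjusted p = 0.0725 and 0.179). The gene whose 5 day means ran closest to TDGF1 among 10557 eligible genes was POU5F1, a core pluripotency factor, with a root mean square difference of 0.282 on the log2(CPM + 1) scale after centring, where CPM is the count scaled to a common library total. Processed copies of TDGF1 can share its reads, and TDGF1P3 held 1.09% to 1.31% as many counts as TDGF1 on days 0 and 4, 0% to 9.68% on day 11 and 0.980% to 11.2% on day 20.

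**Figure D1:**
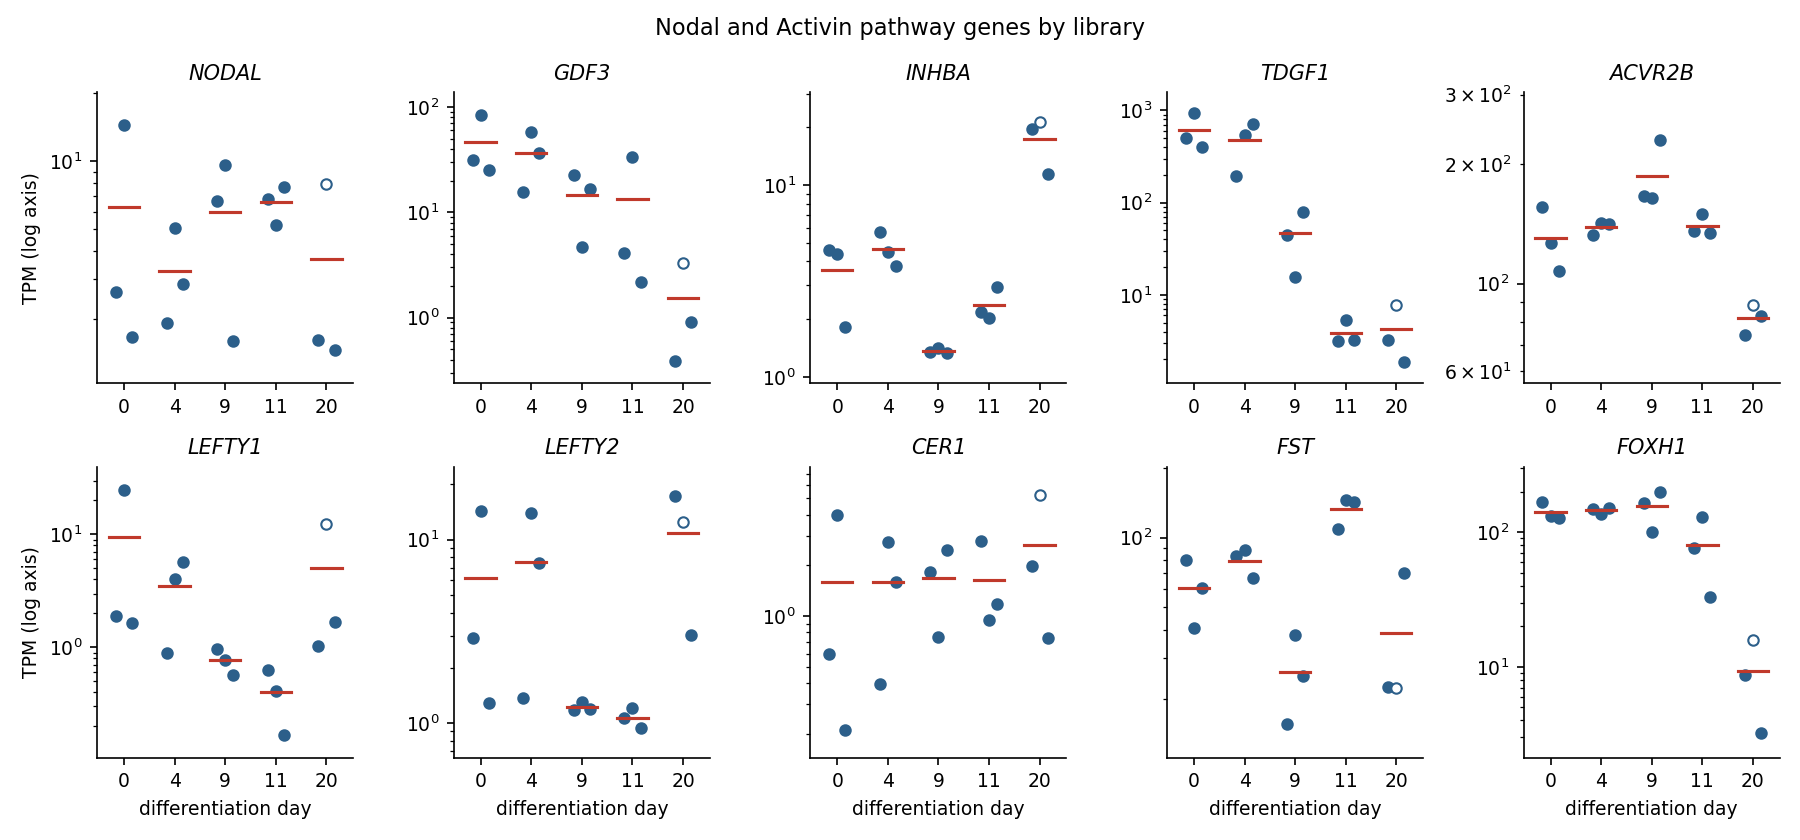
TPM of each gene (log axis, with its own range in each panel) in every library against differentiation day. Dots are libraries, the open dot is day 20 replicate 2_3 and red bars are means of 3, and TDGF1 falls from 404 to 931 TPM on day 0 to 3.16 to 5.30 TPM on day 11.

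CFC1, the other EGF-CFC co-receptor, moved in the opposite direction from day 4 to day 9. CFC1 was between 0.288 and 1.61 TPM on days 0 and 4, and reached 103.6, 48.9 and 159 TPM in replicates 2, 6_1 and 3 of day 9 (log2 fold change 6.88, SE 0.65, adjusted p = 0.000136 by edgeR). From day 9 to day 11 both genes went down, and mean CPM of CFC1 went from 48.4 to 20.1, a decrease that was not called. TDGF1 therefore made up 99.7% to 99.97% of the summed TDGF1 and CFC1 TPM on days 0 and 4, but 24.3% to 33.5% on day 9 and 6.53% to 14.9% on day 11. On day 20 its share was 26.5% in replicate 2, 47.9% in replicate 2_3 and 42.4% in replicate 6_1, while CFC1 itself was down to 2.56 to 9.07 TPM. Shares did not overlap between days 4 and 9, days 9 and 11 or days 11 and 20, each with p = 0.1 in an exact two-sided permutation test, the smallest value 3 libraries against 3 can give. CFC1B is a near-identical copy of CFC1, held at most 2.55 TPM in any library, and reads may have been divided between the copies.

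NODAL, the ligand that signals through these co-receptors, did not follow TDGF1. NODAL (ENSG00000156574, chromosome 10, 70431936 to 70447951, minus strand) was at 2.64, 14.5 and 1.67 TPM in replicates 1, 2 and 3 of day 0 and at 1.93, 5.06 and 2.87 TPM in replicates 1, 2 and 5 of day 4. Replicates 2, 6_1 and 3 of day 9 held 6.70, 9.62 and 1.60 TPM, and replicates 2, 5 and 6 of day 11 held 6.85, 5.23 and 7.74 TPM. By day 20 it was at 1.62, 7.98 and 1.46 TPM in replicates 2, 2_3 and 6_1. NODAL was thus still detected on day 11 in every library, with 46 to 82 counts, and no pair of successive days passed the test (adjusted p from 0.282 to 0.945 by edgeR). Its day 11 level was 1.97-fold that of day 4 (log2 fold change 0.97, SE 0.39, adjusted p = 0.0682). That value passed the threshold under 5 of 14 alternatives, among them limma on log2(TPM + 1), at an adjusted p of 0.0434. An unnamed gene on the opposite strand overlaps 698 exon bases of NODAL, and how strand was used in counting is not given in the sources used here.

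GDF3, a Nodal-related ligand of pluripotent cells, had lower means at later days, with wide spread between replicates. GDF3 (ENSG00000184344, chromosome 12, 7689784 to 7695775, minus strand) was at 31.1, 84.8 and 25.0 TPM in replicates 1, 2 and 3 of day 0 and at 15.7, 58.0 and 36.8 TPM in replicates 1, 2 and 5 of day 4. On day 9 it was at 22.7, 4.73 and 16.7 TPM in replicates 2, 6_1 and 3. On day 11 replicate 5 held 33.6 TPM against 4.13 TPM in replicate 2 and 2.19 TPM in replicate 6. On day 20 the 3 libraries held 3 to 16 counts, or 0.390 to 3.29 TPM. TPM on day 20 overlapped day 11, since replicate 2_3 lay above day 11 replicate 6, and the 10.4-fold lower level did not pass (log2 fold change -3.37, SE 1.17, adjusted p = 0.199 by edgeR). It passed with DESeq2 (adjusted p = 0.0151) and with all 15 libraries in the fit (adjusted p = 0.045). With the plate as a block, which leaves day 11 replicate 5 without a partner, the day 11 level was below day 9 (log2 fold change -1.94, SE 0.45, adjusted p = 0.0197), where the fit without the block gave -0.27. Without day 11 replicate 5, day 11 against day 4 gave a log2 fold change of -3.56 (adjusted p = 0.00354), against -1.54 (adjusted p = 0.243) with it.

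INHBA, which encodes the subunit of Activin A, was lowest on day 9 and highest on day 20. INHBA (ENSG00000122641, chromosome 7, 41667168 to 41705834, minus strand) was at 4.58, 4.39 and 1.81 TPM in replicates 1, 2 and 3 of day 0 and at 5.69, 4.46 and 3.79 TPM in replicates 1, 2 and 5 of day 4. On day 9 replicates 2, 6_1 and 3 held 1.34, 1.41 and 1.33 TPM, the narrowest spread of any day. Day 11 held 2.17, 2.02 and 2.93 TPM in replicates 2, 5 and 6, and day 20 held 19.7, 21.3 and 11.4 TPM in replicates 2, 2_3 and 6_1. All day 9 libraries were below all day 4 libraries, and all day 20 libraries were above every earlier library. INHBA fell 3.38-fold between days 4 and 9 (log2 fold change -1.76, SE 0.21, adjusted p = 0.000279 by edgeR). Its day 11 level was 2.02-fold below day 4 (log2 fold change -1.02, SE 0.26, adjusted p = 0.0124), a call lost without day 4 replicate 1 or day 11 replicate 2 (adjusted p = 0.0597 and 0.0527). INHBA rose 6.58-fold between days 11 and 20 (log2 fold change 2.72, SE 0.32, adjusted p = 0.0173), and without replicate 2_3 the value was 2.71 (adjusted p = 0.0187). The rise was not called with the plate as a block (log2 fold change 2.56, adjusted p = 0.0936) or when any day 11 library was left out (adjusted p from 0.0917 to 0.145). Hardly any gene kept a call in those fits. Over all genes the plate block called 3, and the fits without day 11 replicate 2, 5 or 6 called 0, 1 and 0. These lost calls are therefore not particular to INHBA. Mesenchymal markers on day 20 summed to 2492 TPM in replicate 2, 1109 TPM in replicate 2_3 and 21724 TPM in replicate 6_1. In the same order cardiomyocyte markers summed to 21100, 20795 and 4806 TPM and endodermal markers to 16106, 609 and 18296 TPM. The part of any cell type in the INHBA level was not tested. INHA, whose product joins that of INHBA to make inhibin A, was also called higher on day 20 (log2 fold change 3.35, SE 0.59, adjusted p = 0.0392). It was not called with the plate or the lane as a block or when any 1 day 11 library or day 20 replicate 2 was left out. As for INHBA, the plate block and the fits without a day 11 library called at most 3 genes in all.

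**Figure D2:**
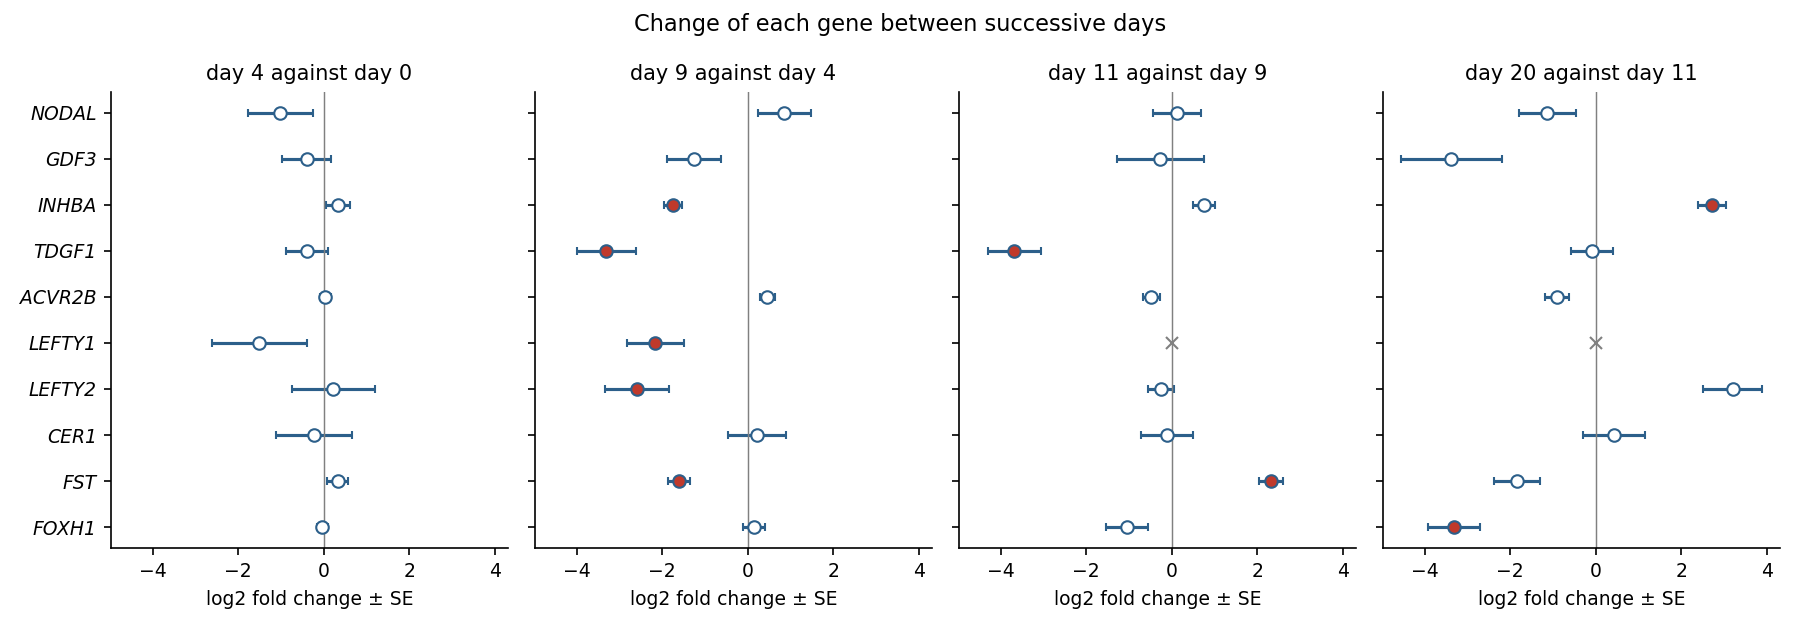
Log2 fold change of each gene with its standard error in 4 comparisons of successive days, from edgeR on 3 libraries against 3. Red dots passed an adjusted p of 0.05, open dots did not and a cross marks LEFTY1 where its counts were too low to test, and 5 genes are red on day 9 against day 4, all of them lower.

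FST, follistatin, binds and neutralises Activin, and it was called lower on day 9 than on day 4 and then higher on day 11. FST (ENSG00000134363, chromosome 5, 53480626 to 53487134, plus strand) measured 80.1, 40.5 and 60.6 TPM in replicates 1, 2 and 3 of day 0 and 83.7, 88.1 and 66.8 TPM in replicates 1, 2 and 5 of day 4. It was at 15.5, 37.9 and 25.1 TPM in replicates 2, 6_1 and 3 of day 9, and at 109.5, 145 and 143 TPM in replicates 2, 5 and 6 of day 11. On day 20 replicates 2 and 2_3 held 22.6 and 22.3 TPM and replicate 6_1 held 70.6 TPM. The days from 4 to 20 were fully separated from their neighbours. FST fell 3.05-fold from day 4 to day 9 (log2 fold change -1.61, SE 0.26, adjusted p = 0.00164 by edgeR) and rose 4.97-fold from day 9 to day 11 (log2 fold change 2.31, SE 0.28, adjusted p = 0.0147). Leaving out day 9 replicate 2 or 3 ended the call of the rise (adjusted p = 0.086 and 0.0738). Those 2 fits called only 0 and 37 genes in all, against 495 with all 6 libraries, so the lost call is not particular to FST. With the plate block, which compares these days within plates 2 and 6 alone, FST gave 2.32 (adjusted p = 2.68e-05). Its day 11 level was also 1.61-fold that of day 4 (log2 fold change 0.69, SE 0.18, adjusted p = 0.0113), a call that was lost without day 4 replicate 5 (adjusted p = 0.0624) and with all 15 libraries in the fit (0.28). The later 3.59-fold lower level on day 20 did not pass (log2 fold change -1.84, SE 0.54, adjusted p = 0.134), but was called with DESeq2 (adjusted p = 0.0175) and without day 20 replicate 6_1 (adjusted p = 0.0233).

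The FST antagonist and the INHBA ligand were furthest apart in RNA level on day 11. The ratio of FST to INHBA TPM was 9.22 to 33.4 on day 0, 14.7 to 19.8 on day 4 and 11.6 to 26.9 on day 9. It reached 50.4, 72.0 and 48.9 in replicates 2, 5 and 6 of day 11, and dropped to 1.15, 1.05 and 6.19 in replicates 2, 2_3 and 6_1 of day 20. Day 11 was above all libraries of days 9 and 20 (exact two-sided permutation p = 0.1 for each, the smallest possible). These are ratios of RNA levels and do not measure free Activin protein.

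**Figure D3:**
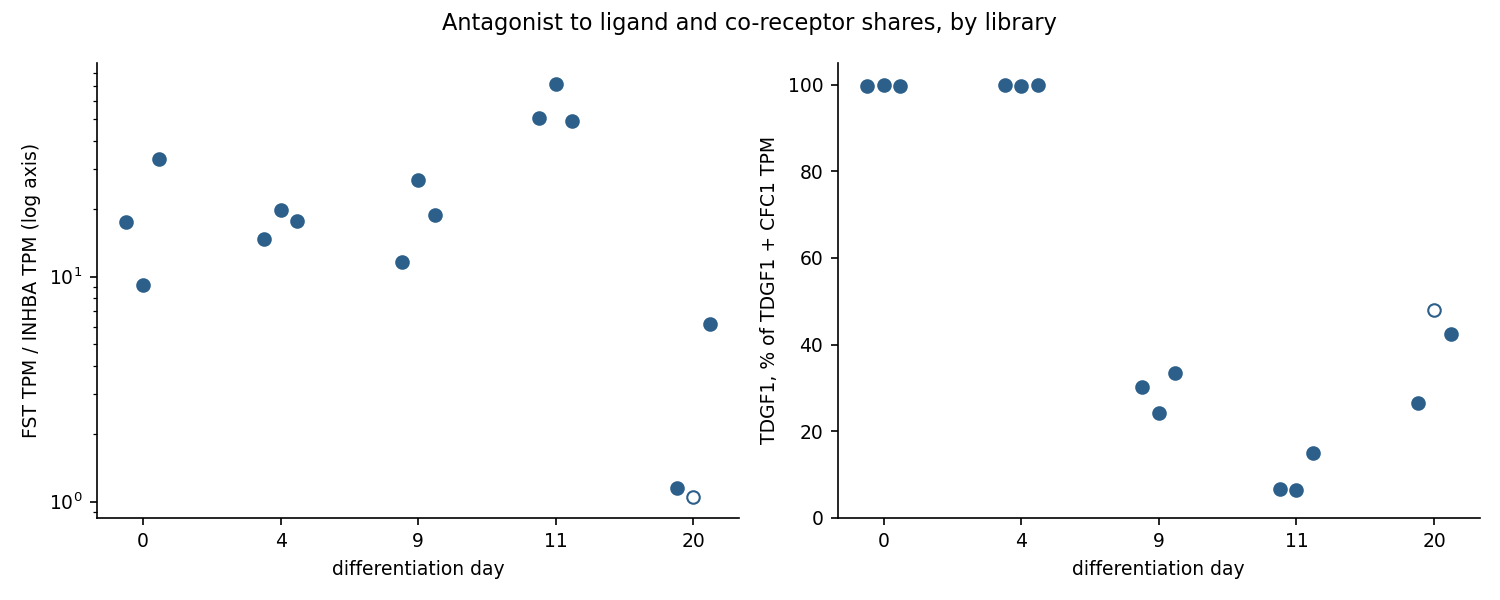
Ratio of FST to INHBA TPM (left, log axis) and share of TDGF1 in the summed TDGF1 and CFC1 TPM (right, percent) in each library by differentiation day. Dots are libraries and the open dot is day 20 replicate 2_3, and the ratio lies between 48.9 and 72.0 on day 11 and between 1.05 and 6.19 on day 20.

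ACVR2B, a type II receptor of Activin and Nodal, was among the steadiest of the 10 genes. ACVR2B (ENSG00000114739, chromosome 3, 38453890 to 38493142, plus strand) lay at 156, 127 and 108 TPM in replicates 1, 2 and 3 of day 0 and at 132, 142 and 142 TPM in replicates 1, 2 and 5 of day 4. It measured 167, 165 and 230.3 TPM in replicates 2, 6_1 and 3 of day 9 and 136, 150.1 and 134 TPM in replicates 2, 5 and 6 of day 11. Day 20 was lowest, with 74.1, 88.4 and 82.8 TPM in replicates 2, 2_3 and 6_1. Day 9 lay above days 4 and 11, and day 20 below day 11, without overlap. None of these differences passed (day 9 against day 4, log2 fold change 0.46, SE 0.17, adjusted p = 0.0567, and day 20 against day 11, -0.91, SE 0.29, adjusted p = 0.168, both by edgeR). DESeq2 called both, with adjusted p of 0.0377 and 0.00959. Relative to ACVR2A, the other type II Activin receptor, ACVR2B TPM was 3.28 to 4.46 times as high on days 0 and 4, 5.21 to 7.59 times on day 9, 5.63 to 6.88 times on day 11 and 2.20 to 3.33 times on day 20.

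LEFTY1 and LEFTY2 encode secreted inhibitors that block Nodal and its co-receptor, and both were low from day 9 to day 11. LEFTY2 (ENSG00000143768, chromosome 1, 225936598 to 225941383, minus strand) was at 2.89, 14.3 and 1.29 TPM in replicates 1, 2 and 3 of day 0 and at 1.36, 13.96 and 7.45 TPM in replicates 1, 2 and 5 of day 4. All 6 libraries of days 9 and 11 lay between 0.935 and 1.30 TPM. Replicates 2, 2_3 and 6_1 of day 20 held 17.3, 12.5 and 3.00 TPM, each above every library of days 9 and 11. LEFTY2 fell 6.02-fold from day 4 to day 9 (log2 fold change -2.59, SE 0.75, adjusted p = 0.0232 by edgeR). That call was lost in 5 of the 6 fits that left out a library (adjusted p from 0.0501 to 0.124), all but the fit without day 4 replicate 1, the library closest to day 9, and without the filter on low counts (0.15). Day 11 was 7.26-fold below day 4 (log2 fold change -2.86, SE 0.77, adjusted p = 0.018), which was not called when any day 11 library was left out (adjusted p from 0.0565 to 0.0776). The 9.17-fold higher level on day 20 than on day 11 did not pass (log2 fold change 3.20, SE 0.68, adjusted p = 0.065). It passed with DESeq2 (adjusted p = 9.25e-05), with all 15 libraries in the fit (0.0335) and without day 20 replicate 6_1 (0.0341), and without replicate 2_3 it was 3.24 (adjusted p = 0.0703).

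LEFTY1 (ENSG00000243709, chromosome 1, 225886282 to 225911382, minus strand) was at 1.91, 24.9 and 1.64 TPM in replicates 1, 2 and 3 of day 0 and at 0.894, 3.99 and 5.66 TPM in replicates 1, 2 and 5 of day 4. Day 9 held 8 to 9 counts a library, or 0.572 to 0.964 TPM, and day 11 held 2 to 7 counts, or 0.169 to 0.631 TPM. LEFTY1 fell 4.46-fold from day 4 to day 9 (log2 fold change -2.16, SE 0.67, adjusted p = 0.0285 by edgeR), although day 4 replicate 1 lay within the range of day 9. That call was lost in 5 of the 6 fits without a library (adjusted p from 0.0545 to 0.0926), all but the fit without day 4 replicate 1, and with all 15 libraries in the fit (0.152). Day 11 was 8.77-fold below day 4 (log2 fold change -3.13, SE 0.75, adjusted p = 0.0094), and this was called under all 14 alternatives. On day 20 replicates 2 and 6_1 held 1.02 and 1.66 TPM, and the 12.4 TPM in replicate 2_3 came from the library with background counts. Its counts were too few to be tested between days 9 and 11 or days 11 and 20. The LEFTY genes are neighbours with closely similar coding sequence, and 882 exon bases of LEFTY1 are shared with a readthrough gene, so that reads may have been divided between them.

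CER1, Cerberus, binds and inhibits Nodal and was low on every day, with 1 to 40 counts a library. CER1 (ENSG00000147869, chromosome 9, 14719724 to 14722733, minus strand) was at 0.593, 3.96 and 0.212 TPM in replicates 1, 2 and 3 of day 0 and at 0.398, 2.76 and 1.60 TPM in replicates 1, 2 and 5 of day 4. It lay between 0.753 and 2.45 TPM on day 9, between 0.951 and 2.81 TPM on day 11 and between 0.739 and 5.25 TPM on day 20. All days overlapped, and at this depth no difference was detectable (adjusted p from 0.82 to 0.963 by edgeR over the 5 comparisons).

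FOXH1, the DNA-binding partner of SMAD2 and SMAD3, stayed high far longer than TDGF1. FOXH1 (ENSG00000160973, chromosome 8, 144473412 to 144475849, minus strand) was at 167, 131 and 129 TPM in replicates 1, 2 and 3 of day 0, at 148, 137 and 152 TPM in replicates 1, 2 and 5 of day 4 and at 165, 101 and 201 TPM in replicates 2, 6_1 and 3 of day 9. It was at 76.7, 130.1 and 33.3 TPM in replicates 2, 5 and 6 of day 11. On day 20 it held 8.69, 15.9 and 3.23 TPM in replicates 2, 2_3 and 6_1. Days 0, 4 and 9 overlapped, day 11 overlapped day 9 in replicate 5, and day 20 lay below every earlier library. FOXH1 fell 9.97-fold from day 11 to day 20 (log2 fold change -3.32, SE 0.61, adjusted p = 0.0445 by edgeR). This call was close to the threshold and was lost under 11 of 14 alternatives, with log2 fold changes from -3.72 to -2.85 over all 14. Those 11 included the plate block and each fit without a day 11 library, which called at most 3 genes in all. It gave -3.09 (adjusted p = 0.0522) with the plate as a block and -3.72 (adjusted p = 0.063) without replicate 2_3. With the plate as a block the step from day 9 to day 11 was called (log2 fold change -1.39, SE 0.15, adjusted p = 8.54e-05), against -1.05 (adjusted p = 0.333) without the block. The blocked fit compares these days within plates 2 and 6 alone, so its small p-value draws mostly on spread borrowed from other genes. KIFC2, on the opposite strand, overlaps 791 exon bases of FOXH1.

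Compared by day, 0 of the 10 genes passed between days 0 and 4, where 0% of all 20964 genes tested were called higher and 0% lower by edgeR. At an unadjusted p under 0.05 there were 0 members and 741 genes in all, and DESeq2 and limma on log2 TPM called 0 genes as well. Overlap was judged here on CPM after TMM normalization. On this scale no member separated the days, and without overlap 5.94% of all genes were higher and 4.05% lower. On day 9 against day 4 none of the 10 was called higher and 5 were called lower (INHBA, TDGF1, LEFTY1, LEFTY2 and FST), where 24.3% of 21252 genes were called higher and 24.7% lower. Without overlap 1 member was higher and 4 were lower, against 29.4% and 30.3% of all genes. The median log2 fold change was -1.44 over the 10 genes and 0.01 over all genes tested. These 5 genes fell as the 6 markers of undifferentiated cells dropped to a sum of 458 to 535 TPM, and the part of that loss was not tested.

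On day 11 against day 9 FST was higher and TDGF1 lower among 9 members tested, where 1.39% of 20679 genes were called higher and 1% lower. Without overlap 2 members were higher (FST and INHBA) and 3 lower (TDGF1, ACVR2B and LEFTY2), against 11.8% and 12.1% of all genes, and in TPM LEFTY2 overlapped. With the plate as a block 3 members were called, FST higher and GDF3 and FOXH1 lower, and genes called in all went from 495 to 1971. Those calls rest on the libraries of plates 2 and 6 alone. On day 20 against day 11 INHBA was higher and FOXH1 lower among 9 tested, where 1.12% of 21398 genes were called higher and 0.435% lower. Without overlap 2 members were higher (INHBA and LEFTY2) and 5 lower (NODAL, GDF3, ACVR2B, FST and FOXH1), against 8.95% and 14.2% of all genes, and in TPM NODAL and GDF3 overlapped. With the plate as a block 0 members were called and genes called in all went from 332 to 3, while 4 members were at an unadjusted p under 0.05. Between days 4 and 11 FST was called higher and INHBA, TDGF1, LEFTY1 and LEFTY2 lower, where 23.1% of 21187 genes were called higher and 23.8% lower. Without overlap 1 member was higher and 5 were lower, against 27.8% and 29.7% of all genes.

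Day 20 levels of the weaker members rested on which library was read. In replicate 2_3 the silent genes reached 6.17 TPM at their 95th percentile and 11.1 TPM at most. GDF3 and CER1 lay below that 95th percentile, NODAL and TDGF1 lay above it but below the maximum, and the other 6 genes lay above the maximum. In replicates 2 and 6_1 the 95th percentiles were 0.173 and 0.709 TPM, and all 10 genes lay above them. The maxima of the silent genes there were 8.14 and 3.63 TPM. These genes were chosen on days 0 to 11 alone, so 1 that came on by day 20 stays among them and can set the maximum. In replicate 2 only 42 of the 252 had a count and their median was 0 TPM, so its maximum is not a background level. NODAL, GDF3, TDGF1, LEFTY1 and CER1 lay below the maximum in both libraries, as did LEFTY2 and FOXH1 in replicate 6_1.

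**Figure D4:**
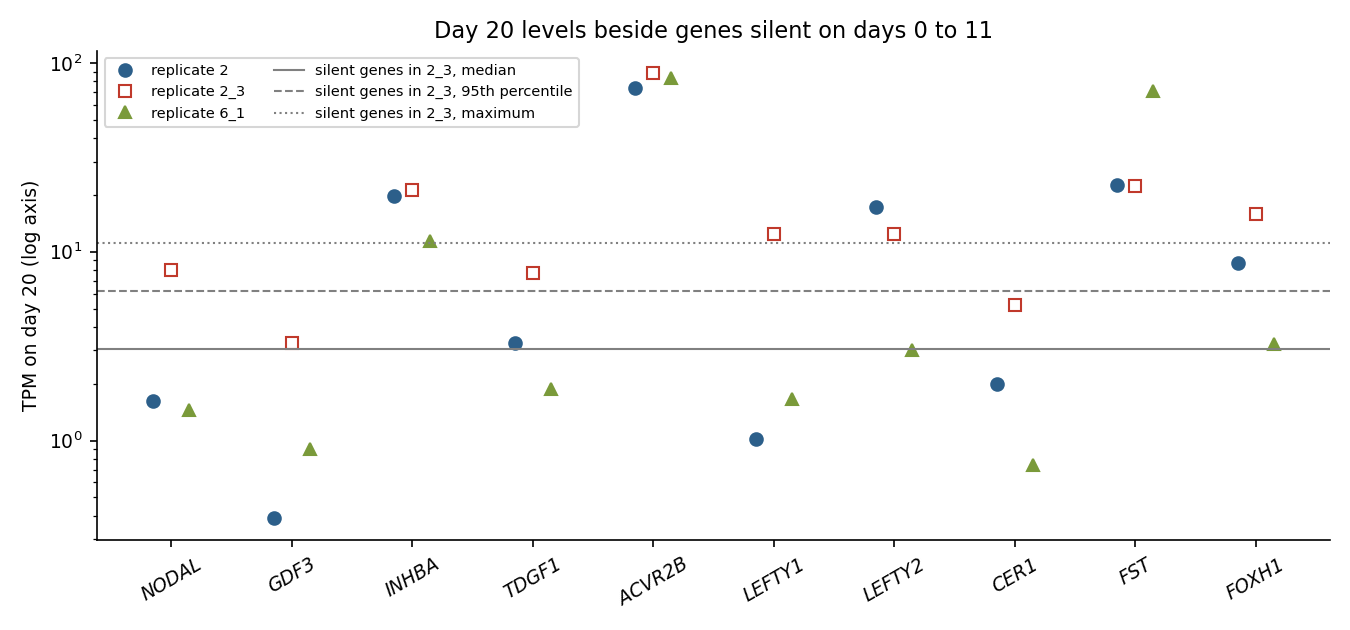
TPM of the 10 genes on day 20 (log axis) in replicates 2, 2_3 and 6_1. Grey lines give the median (3.05 TPM), 95th percentile (6.17 TPM) and maximum (11.1 TPM) in replicate 2_3 of 252 genes silent on days 0 to 11, and GDF3 and CER1 in that replicate lie under the 95th percentile.

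Among the undifferentiated libraries, known Nodal targets stood together at high levels in 1 library, a pattern noticed after the values were seen and given without a test. In day 0 replicate 2, CPM exceeded the mean of the other replicates 12.2-fold for LEFTY1, 6.16-fold for LEFTY2, 5.93-fold for NODAL, 2.63-fold for GDF3 and 1.80-fold for TDGF1. Over 16758 genes at 1 CPM or more on day 0, the same ratio had a median of 0.948, and 2.14% of them reached 2-fold. SMAD7, PMEPA1 and SKIL, feedback genes that TGF-beta family signals are known to induce, were at 2.95-fold, 2.21-fold and 1.97-fold, and NANOG, which SMAD2 and SMAD3 are known to regulate, was at 2.46-fold. These feedback genes were the highest of the pathway list described below. Its other genes at 1 CPM or more ran from 0.223-fold to 1.47-fold, with BAMBI at 0.972-fold and SMAD3 at 0.591-fold. FST (0.502-fold), FOXH1 (0.776-fold), ACVR2B (0.844-fold) and SOX2 (0.676-fold) were lower in that library, and POU5F1 was at 1.20-fold. This library had the largest total, at 33469703 counts, and the 3 libraries of day 0 were sequenced in lanes 4, 3 and 1. The 6 genes NODAL, GDF3, TDGF1, LEFTY1, LEFTY2 and CER1 were all highest in day 0 replicate 2, where 37.03% of all genes at 1 CPM or more had their highest day 0 value. On day 4 the same 6 genes were all lowest in replicate 1, where 34.96% of all genes had their lowest.

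**Figure D5:**
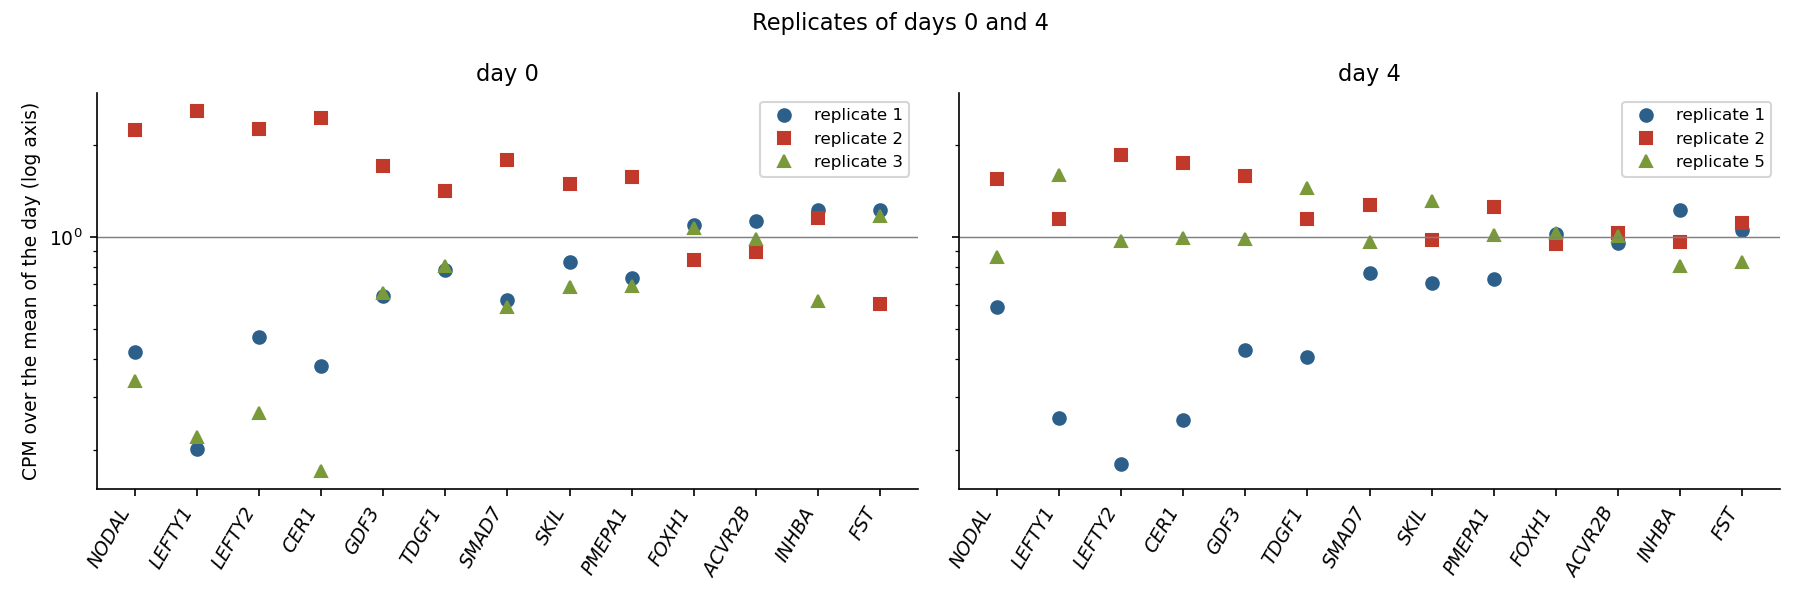
CPM of each gene divided by the mean of its day (log axis), for the 3 replicates of day 0 (left) and of day 4 (right). Symbols are single libraries, and day 0 replicate 2 lies highest and day 4 replicate 1 lowest for the first 9 genes shown, from NODAL to PMEPA1.

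Other genes of the pathway were read from a list of 41, of which 40 were in the tables. Between days 0 and 4, 0 of 32 tested passed. On day 9 against day 4, 14 of 35 were called higher and 6 lower by edgeR, beside 24.3% and 24.7% of all genes, with a median log2 fold change of 0.34 against 0.01 over all genes. Among the higher genes were mesendoderm transcription factors that Nodal is known to induce, EOMES (log2 fold change 6.50, SE 0.74), GSC (3.53, SE 0.63) and MIXL1 (2.05, SE 0.27). EOMES went from 0.0991 to 0.222 TPM on day 4 to 5.11 to 22.4 TPM on day 9. The signal transducer SMAD3 (2.09, SE 0.16), the inhibitory SMAD7 (2.65, SE 0.26), the pseudoreceptor BAMBI (3.57, SE 0.26) and the convertase FURIN (2.03, SE 0.23) were higher too. The lower genes included INHBB, which encodes another Activin subunit (-3.43, SE 0.72), the Nodal type I receptor ACVR1C (-1.75, SE 0.34), PMEPA1 (-1.49, SE 0.30) and SKIL (-0.95, SE 0.22).

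Between days 9 and 11, TGFB3 was higher (log2 fold change 3.38, SE 0.28, adjusted p = 0.0103) and EOMES (-3.58, SE 0.61, adjusted p = 0.033) and TGIF1, a SMAD co-repressor (-1.06, SE 0.17, adjusted p = 0.0248), were lower among 34 tested by edgeR, where 1.39% and 1% of all genes were called. With the plate as a block 9 of the list were called. On day 20 against day 11 only INHA passed among 33 tested, and 0 did with the block. All 12 SMADs and partners had negative log2 fold changes there, with a median of -0.35 against 0.07 over all genes, and none of the 12 passed. Between days 4 and 11, 16 of 34 were higher and 7 lower, beside 23.1% and 23.8% of all genes, and SMAD7 (log2 fold change 2.69, SE 0.21, adjusted p = 2.25e-05) and BAMBI (4.38, SE 0.30, adjusted p = 1.32e-05) were among the higher. SMAD7 was thus higher on day 11 than on day 4 while LEFTY1, LEFTY2, PMEPA1 (-1.11, SE 0.24, adjusted p = 0.00455) and SKIL (-1.20, SE 0.22, adjusted p = 0.00212) were lower.

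The closest day profiles to other members are given as a description, since among 10557 eligible genes the nearest will mostly lie outside a short pathway list. By the same measure as for TDGF1, FOXH1 ran closest to KIT (0.276), TUNAR (0.294) and FZD7 (0.345), and INHBA to LGI4 (0.0996), PTPRH (0.152) and EGFEM1P (0.154). FST was closest to VAT1L (0.103), SUSD4 (0.229) and SSTR2 (0.379), and GDF3 to MCM5 (0.136), ORC1 (0.141) and ZNF724 (0.157). Among members, the closest pair was LEFTY1 and LEFTY2, with a difference of 0.427. Many other genes were closer, since LEFTY2 ranked 1085 for LEFTY1 and LEFTY1 ranked 485 for LEFTY2. Each comparison rests on 5 day means, and NODAL and CER1 varied too little or were too low to be compared.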

How the data were processed

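Bulk RNA-seq libraries of H1 cells were grouped by the day in their labels. The 10 genes and the lists were chosen with earlier results of these data known. The authors aligned paired-end reads of a stranded total RNA kit to GRCh38 (Ensembl release 79) with STAR 2.5.2b and deposited raw counts per gene from featureCounts 1.5.1. The authors also deposited TPM, derived from those counts with gene lengths not given in the sources used here. A deposited sample table holds RNA integrity numbers (a score), uniquely mapped shares (a fraction) and, as other information, sequencing lanes. Library totals were 11990302 to 33469703 counts, and depth together with replicate spread sets each standard error.

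Differences in counts were tested by edgeR 4.0.16 under R 4.3.3 (TMM, filterByExpr at 10 counts and a total of 15, robust quasi-likelihood test, two-sided) on the 6 libraries of 2 days, without covariates. P-values were adjusted by Benjamini-Hochberg over all genes tested, with a threshold of 0.05, and the standard error is the log2 fold change divided by the square root of F. Replicates are labelled biological, so p-values cover the spread between these 3 libraries a day. Day 20 replicates 2 and 2_3 share a plate number, and tests with day 20 treat them as independent. Single values were compared by an exact permutation test. All 10 genes, the pathway list and, for each gene that varied enough, the 3 genes with the nearest day profile were named by rule. Plate numbers in the sample names were fitted as a block, and the labels do not say what they share. Deviations from the day means of same-plate libraries correlated at 0.162 and 0.383 (day 11 and day 9), -0.18, -0.0162 and 0.404 (day 20 and day 11) and -0.117 and 0.0727 (day 11 and day 4). Coordinates come from GENCODE v44. The alternatives were DESeq2 1.42.0, scaling by library size, no filter, all 15 libraries in one fit, limma 3.58.1 on log2(TPM + 1) and log2(TPM + 0.1), CPM in place of TPM, plate or lane as a block and each replicate left out. The same alternatives for the pathway list were added after the data were seen. The code was tested on simulated data. Single-cell libraries were not analysed here. Values of 1 gene of the pathway list are not reported here.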

Additional observations from a re-analysis of the deposited data

How the results depend on the processing

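Over 48 log2 fold changes of the 10 genes and 642 values under alternatives, 529 kept direction and side of the threshold, 45 lost a call, 28 gained a call and 40 changed sign. None of the sign changes touched a called value, and the cause of each change was not tested unless its construction shows it. TPM against CPM left 48 of 50 shares of day levels within the replicate spread. Library size scaling shifted the members by a median of 0.133 on day 20 against day 11.

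Members called on day 9 against day 4 were 3 to 5 without a replicate (5 with all). On day 11 against day 9 they were 1 without the filter and 0 to 2 without a replicate (2 with all). On day 20 against day 11 they were 6 with DESeq2, 6 with all 15 libraries, 1 with library size scaling, 1 with limma at either pseudocount, 0 with the plate block, 1 with the lane block and 0 to 3 without a replicate (2 with all). On day 11 against day 4 they were 3 to 7 without a replicate (5 with all). Of all genes, 64 were called on day 4 against day 0 without the filter, and 6209 on day 9 against day 4 with all 15 libraries (10406 in the 6 alone). On day 11 against day 9, 1671 were called by DESeq2, 1016 without the filter, 1971 with the plate block and 0 to 573 without a replicate (495 with all). The fit with 0 calls lacked day 9 replicate 2, so no member could be called in it. On day 20 against day 11, 1864 were called by DESeq2, 3132 with all 15 libraries, 3 with the plate block, 137 with the lane block and 0 to 510 without a replicate (332 with all). The fits without day 11 replicate 2, 5 or 6 called 0, 1 and 0 genes, so a call lost there is not particular to a member. The plate block also changed the calls given in the report for TDGF1, GDF3, FOXH1 and INHBA and that of FOXH1 on day 11 against day 4 (-0.59, adjusted p = 0.0406), and no other member call. Pathway genes called moved from 3 to between 0 and 9 on day 11 against day 9 and from 1 to between 0 and 6 on day 20 against day 11.

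Sign changes from leaving out 1 replicate are given as the range of log2 fold changes. For day 4 against day 0 it was -1.46 to 0.47 for NODAL, -0.90 to 0.28 for GDF3, -0.0163 to 0.10 for ACVR2B, -2.03 to 0.86 for LEFTY1, -0.56 to 1.70 for LEFTY2, -0.88 to 1.68 for CER1 and -0.12 to 0.0219 for FOXH1. Each of NODAL, GDF3, ACVR2B, LEFTY1 and CER1 changed sign without day 0 replicate 2. For day 9 against day 4 the range was -0.31 to 0.86 for CER1 and -0.0808 to 0.42 for FOXH1. For day 11 against day 9 it was -0.34 to 0.57 for NODAL, -2.30 to 0.24 for GDF3 and -0.72 to 0.29 for CER1. For day 20 against day 11 it was -0.58 to 0.18 for TDGF1 and -0.23 to 0.99 for CER1, and for day 11 against day 4 it was -0.54 to 0.71 for CER1. With limma on log2(TPM + 1) and log2(TPM + 0.1), day 4 against day 0 went to 0.17 and 0.49 for CER1 and to 0.0423 and 0.0426 for FOXH1, and day 11 against day 4 went to 0.0121 under each for ACVR2B. With the plate block NODAL went to -0.18 and CER1 to 0.56 on day 11 against day 9, and CER1 to -0.20 on day 20 against day 11 and to -0.34 on day 11 against day 4. With library size scaling TDGF1 went to 0.0817 on day 20 against day 11 and ACVR2B to 0.0171 on day 11 against day 4. Counts of 1 to 40 a library limit what can be seen for CER1, and 2 to 9 counts on days 9 and 11 limit LEFTY1.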
